A study of Hordeum vulgare with 10 samples.

Results

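Hsp90.1 encodes a heat shock protein of the HSP90 chaperone family, and the study read it as a marker that the heat treatment had taken effect. The gene was found by the identifier that the study gives for it, MLOC_5618. It is 1 of 24313 genes listed for roots and 1 of 24312 listed for shoots. Roots and shoots of barley (Hordeum vulgare) cultivar Rolap, 2 weeks old and grown in a soil mixture in an environmental chamber, were sampled after 1 h at 35.5 °C (heat), or from plants kept at 22 °C (control). Heat is represented by 2 root and 3 shoot libraries, and control by 2 root and 3 shoot libraries, all from the same cultivar. Each library was made from mRNA of the whole organ, so that fewer cells of a type and less RNA per cell cannot be told apart.

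HSP90 proteins are ATP-dependent chaperones that work as dimers and help client proteins such as kinases, receptors and disease resistance proteins to reach or keep an active fold. In plants, cytosolic HSP90 also holds heat shock transcription factors back in the absence of stress. When proteins unfold in the heat, these factors are released and bind heat shock elements in the promoters of chaperone genes. In Arabidopsis, HSP90.1 is the cytosolic member of the family with strong heat induction, whereas other cytosolic members are expressed at a steadier level.

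The authors deposited 1 mean normalized count per gene and group, from which the read counts of the single libraries were worked out. A normalized count is the reads of a library over its size factor, a number near 1 that sets libraries on a common scale. Size factors were 0.854 and 0.837 for heated roots, 1.22 and 1.16 for control roots, 0.975, 0.927 and 0.871 for heated shoots, and 1.18, 1.10 and 1.02 for control shoots. The libraries are numbered here in that order, which says nothing about their replicate letters. Genes with recovered reads summed to between 16026856 and 16830180 reads per root library and between 11238205 and 12138865 per shoot library. In roots the size factors of heat and control thus differed more than these sums, so they do not reflect depth alone. MLOC_28370, a locus of phosphate transporters that take up phosphate in roots, had 77 and 90 reads in heated roots, 982 and 989 reads in control roots and 0 reads in each of the 6 shoot libraries.

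In roots, Hsp90.1 was a gene of moderate level at 22 °C and had more reads than any other gene after 1 h of heat. The heated root libraries held 158900 and 172563 reads of Hsp90.1, against 252 and 139 reads in the control root libraries. As normalized counts these were 186085 and 206257 in heated roots, against 206 and 119.9 in control roots. The groups did not overlap, and the lowest heated library was 902-fold above the highest control library. The group means were 196171 ± 14264 in heated roots and 163 ± 61.1 in control roots (SD, n = 2 each), a 1203-fold rise. The log2 fold change in the quasi-likelihood test of edgeR was 10.22 (SE 0.30, 95% interval 9.51 to 10.93, Benjamini-Hochberg adjusted p = 9.36e-07). A rise by itself was not particular to Hsp90.1, since 21.5% of the 18453 root genes tested were called higher in heat.

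In shoots, Hsp90.1 rose as well, and its level in heated shoots stayed below that in heated roots. The heated shoot libraries held 26786, 32804 and 23846 reads, against 70, 77 and 24 reads in the control shoot libraries. The normalized counts were 27486, 35369 and 27375 in heated shoots, against 59.4, 70.1 and 23.6 in control shoots. The groups did not overlap here either, with the lowest heated library 391-fold above the highest control library. The means were 30076.5 ± 4584 in heated shoots and 51.0 ± 24.3 in control shoots (SD, n = 3 each), a 589-fold rise. The edgeR log2 fold change was 9.19 (SE 0.32, 95% interval 8.49 to 9.89, adjusted p = 8.50e-10), and 18.9% of the 16336 shoot genes tested were called higher. Per-library values of heated shoots rest on a choice, because their mean can be written as whole reads in 2 ways. The set given here has libraries within 1.29-fold of each other. The other set holds 78607, 5511 and 3159 reads, a 22.2-fold spread, and with it the edgeR adjusted p was 0.000111. Its lowest library stands at 3626 normalized counts, still above every control shoot library. The 391-fold gap thus holds for the chosen set only and is smaller with the other. The means of the other 3 groups have a single solution each.

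**Figure D1:**
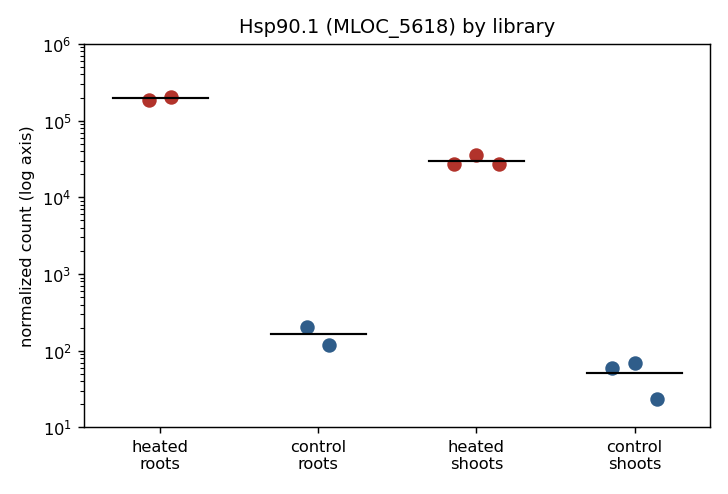
Normalized counts of Hsp90.1 in each of the 10 recovered libraries on a log10 axis, with heat left of control in roots and in shoots; points are libraries and short lines are group means. Heated libraries lie between 186085 and 206257 in roots and, in the chosen set of reads, between 27375 and 35369 in shoots. Control libraries lie between 119.9 and 206 in roots and between 23.6 and 70.1 in shoots. All groups share an axis, but the counts of each organ were normalized separately.

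Hsp90.1 held rank 1 of the 24313 genes in heated roots, in the mean and in both libraries, and rank 10843 in control roots. In heated shoots it held rank 69 of the 24312 genes, and in control shoots rank 12287. A rank orders read counts, not transcripts, since the deposited values are not divided by gene length. The median gene was little affected by these extremes, at 111 normalized counts in heated roots and 117 in control roots, and at 52.9 in heated and 52.9 in control shoots. Control Hsp90.1 thus lay near the middle of all listed genes, at 163 in roots and 51.0 in shoots. Its rank in single libraries was 9761 and 12083 in control roots, 71, 56 and 84 in heated shoots, and 11736, 11225 and 14228 in control shoots. The heated shoot ranks hold for the chosen set of reads, and ranks were not taken with the other set.

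The share of all gene reads that came from Hsp90.1 was 1.02% in heated roots and 0.00118% in control roots. In shoots the share was 0.179% under heat and 0.000355% in control. A share is taken within a group, so that the scale between heat and control drops out, and by shares the rise was 862-fold in roots and 503-fold in shoots. The ratio by shares is smaller because the summed normalized gene reads were themselves 1.40-fold as high in heated as in control roots, and 1.17-fold as high in heated as in control shoots. Gene reads leave out reads that align to several places, a line that made up 4.04% of normalized reads in heated roots, 2.82% in control roots, 23.9% in heated shoots and 21.9% in control shoots. How many of these belong to copies of Hsp90.1 was not tested.

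The genes next to Hsp90.1 in the order of heated means had smaller folds and higher control means. In heated roots no gene stood above it, and MLOC_14228 followed with a mean of 192347, against 3122 in control roots, a 61.6-fold rise. In heated shoots MLOC_64528 stood directly above with 30981, against 2159 in control shoots, a 14.4-fold rise. MLOC_6256 stood directly below with 30057 in heated shoots, against 22314 in control shoots, a 1.35-fold difference. By edgeR these 3 genes were called higher in heat in both organs, except MLOC_6256 in roots (log2 fold change 2.10, adjusted p = 0.0777). MLOC_6256 had only 15 and 13 reads in heated roots and 9 and 0 in control roots, too few for a firm fold. Of all genes tested, 21.5% in roots and 18.9% in shoots were called higher in heat. The proteins of these genes are not named in the sources used here.

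Among genes with a mean over both conditions of at least 50, the rise of Hsp90.1 held place 11 of 15070 in roots and place 14 of 12441 in shoots. The place depends on how low control means are treated, and with 10 added to each mean it was 6 in roots and 5 in shoots. For comparison, the median gene of these sets changed 1.02-fold in roots and 1.01-fold in shoots, and 52.1% of the root genes and 51.3% of the shoot genes had a higher mean in heat. A rise of at least 100-fold was seen in 63 root genes (0.418%) and 38 shoot genes (0.305%). These lists shared 33 genes, which are 52.4% of the root list and 86.8% of the shoot list. Most genes that exceeded Hsp90.1 in fold had fewer reads. In roots this follows from rank 1 of Hsp90.1 by heated mean, and a larger rise then also requires a lower control mean. The control means of the 10 root genes with a larger rise reached at most 74.5. Of the 13 shoot genes with a larger rise, 1 had a higher heated mean, MLOC_77985 with 65898 in heated shoots and 50.4 in control shoots. The lists of genes above Hsp90.1 shared 7 genes, which are 70.0% of the root list and 53.8% of the shoot list.

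Hsp90.1 was a sizeable part of the heated reads of the genes that rose at least 100-fold. This list was drawn from the same means and includes Hsp90.1. The genes that rose at least 100-fold held 10.9% of gene reads in heated roots and 0.0438% in control roots, and Hsp90.1 accounted for 9.33% of the heated sum. In shoots they held 2.00% of gene reads under heat and 0.00731% in control, and Hsp90.1 accounted for 8.95% of the heated sum. By heated mean, the highest of these genes in roots after Hsp90.1 were MLOC_72334, with 150376 in heated and 174 in control roots, and MLOC_5001, with 144657 in heated and 685 in control roots. In shoots Hsp90.1 came after MLOC_77985 and MLOC_74019, the last with 31402 in heated and 312 in control shoots.

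**Figure D2:**
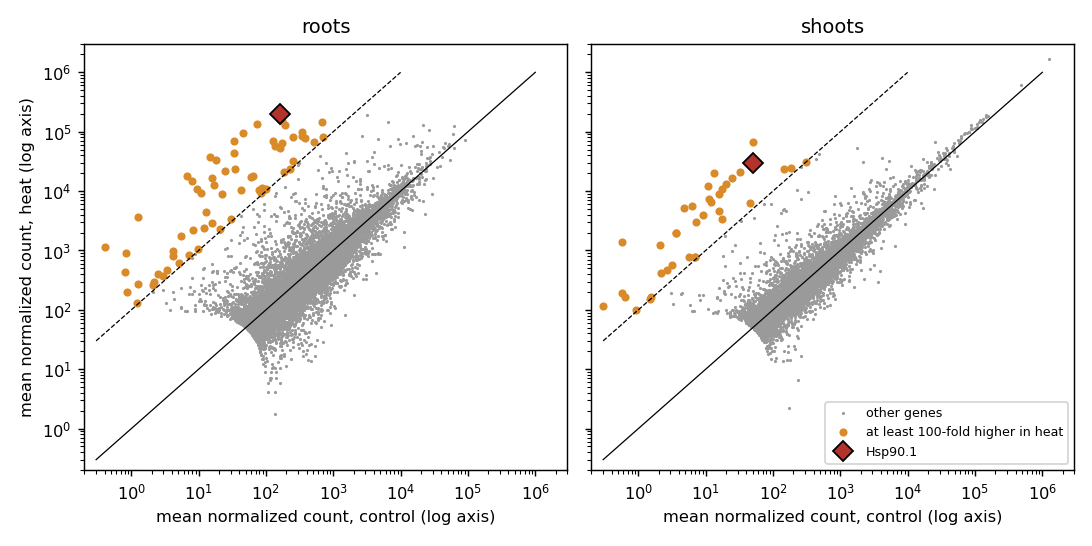
Mean normalized count in heat against that in control for each gene with a mean over both conditions of at least 50, on log10 axes, in roots and shoots; genes that rose at least 100-fold are coloured, Hsp90.1 is marked, the solid line marks equal means and the dashed line a 100-fold rise, and genes with a mean of 0 in either condition cannot be drawn. Hsp90.1 is the highest point on the heat axis in roots at 196171. In shoots it lies at 30076.5, below genes high in both conditions and also below strongly rising genes such as MLOC_77985 at 65898.

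The order of the 4 groups was heated roots, heated shoots, control roots and control shoots. To compare organs, whose tables were normalized separately, Hsp90.1 was expressed as CPM, its share of gene reads on a scale of 1e+06. Hsp90.1 stood at 10150 CPM in heated roots and 1789 CPM in heated shoots, a ratio of 5.67. In control plants it stood at 11.8 CPM in roots and 3.55 CPM in shoots, a ratio of 3.31. In an edgeR fit over all 10 libraries the level in heated roots exceeded that in heated shoots by 1.38 on the log2 scale (SE 0.25, 95% interval 0.84 to 1.92, adjusted p = 0.000176), with 39.6% of the 19376 genes tested called higher in heated roots than in heated shoots. Control roots and control shoots, the lowest neighbours in this order, did not differ beyond their spread, at 0.35 (SE 0.33, 95% interval −0.35 to 1.06, adjusted p = 0.344 in edgeR), with 37.3% of genes called higher in control roots. Heated shoots and control roots, the middle neighbours, stood at 1789 and 11.8 CPM. They differ in both organ and heat, and this pair was not tested.

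Organ contrasts moved with the scale. With libraries scaled to the summed reads of all genes in the fit, the contrast of heated organs was 2.04 (adjusted p = 1.57e-06) and that of control organs 1.29 (adjusted p = 0.00155 in edgeR). The median of all genes then stood at 0.74 in heated and 0.98 in control organs, in each case below the value of Hsp90.1. These totals leave out the genes whose shoot means were not split, which held 26.7% of heated and 25.2% of control shoot gene reads, whereas CPM counts all gene reads, so that the ratios in CPM are larger. With the other set of heated shoot reads, the contrast of heated organs was no longer called (1.39, adjusted p = 0.154 in edgeR). Without control root library 1, the contrast of control organs was −0.041 (adjusted p = 0.928 in edgeR).

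Whether the rise itself differed between organs was tested with the interaction of organ and heat in the same edgeR fit. The root response exceeded the shoot response by 1.03 on the log2 scale (SE 0.42, 95% interval 0.13 to 1.93, edgeR adjusted p = 0.113), which did not pass the threshold of 0.05 across the 19376 genes. A larger root response was called for 10.1% of these genes. The estimate was positive without each of the 10 libraries in turn, between 0.65 and 1.42. It passed the threshold without control root library 1 (1.42, adjusted p = 0.048 in edgeR) and without control shoot library 3 (1.35, adjusted p = 0.0158). These are the control libraries with the most and the fewest reads of Hsp90.1 for their organ. With the other set of heated shoot reads the interaction had an adjusted p of 0.680 in edgeR.

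**Figure D3:**
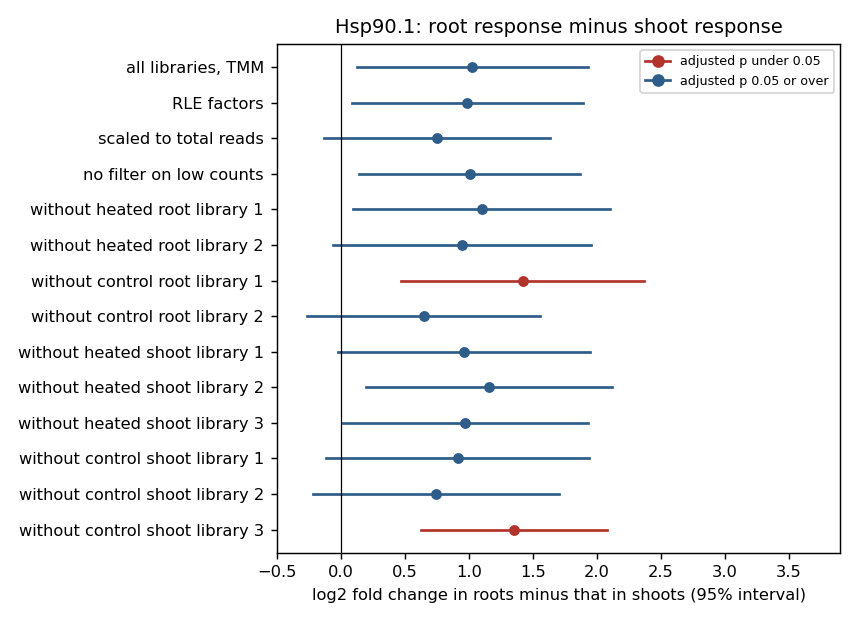
Difference of the Hsp90.1 log2 fold change, roots minus shoots, with its 95% interval from edgeR for all libraries, 3 other settings and each library left out in turn; red marks an adjusted p under 0.05. The other set of heated shoot reads is not drawn (1.04, interval −2.01 to 4.08). Intervals reach below 0 with total reads, and without heated root library 2, control root library 2 or heated shoot library 1. They do so too without control shoot library 1 and without control shoot library 2. All estimates lie above 0, from 0.65 to 1.42, and 2 settings that leave out a control library pass the threshold.

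In roots, highest and lowest library differed 1.11-fold under heat and 1.72-fold in control, with a coefficient of variation of 7.27% in heated and 37.5% in control roots. In control shoots they differed 2.96-fold, with a coefficient of variation of 47.7%. The spread of heated shoots was not set against this, because the reads given for them were chosen for like libraries, and the other set spreads 22.2-fold. Few genes of like control level were as unequal as Hsp90.1. Of genes with a mean within a factor of 2 of that of Hsp90.1, 195 of 5804 (3.36%) were as unequal in control roots and 62 of 4401 (1.41%) in control shoots.

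Other genes of strong heat response mostly shared the lower control root library and the lowest control shoot library of Hsp90.1. Of the 40 other root genes that rose at least 100-fold and had a control mean of at least 10, 33 (82.5%) were higher in control root library 1, where Hsp90.1 was higher, against 49.3% of all 15026 root genes compared. Of the 16 such shoot genes, 14 (87.5%) were lowest in control shoot library 3, where Hsp90.1 was lowest, against 33.8% of all 12390 shoot genes compared. The full order of Hsp90.1, highest in library 2 and lowest in library 3, was shared by 9 of the 16 and by 2057 of all 12390 shoot genes. As log2 ratios of normalized counts + 1, library 3 stood at −1.10 relative to library 2 in the median of these 16 genes, at −1.53 for Hsp90.1 and at 0.01 in the median of all genes. In control roots, library 2 relative to library 1 stood at −0.21 in the median of the 40 genes, at −0.78 for Hsp90.1 and at 0.00 in the median of all genes. These are counts over genes of the same libraries, and what set the libraries apart was not tested.

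**Figure D4:**
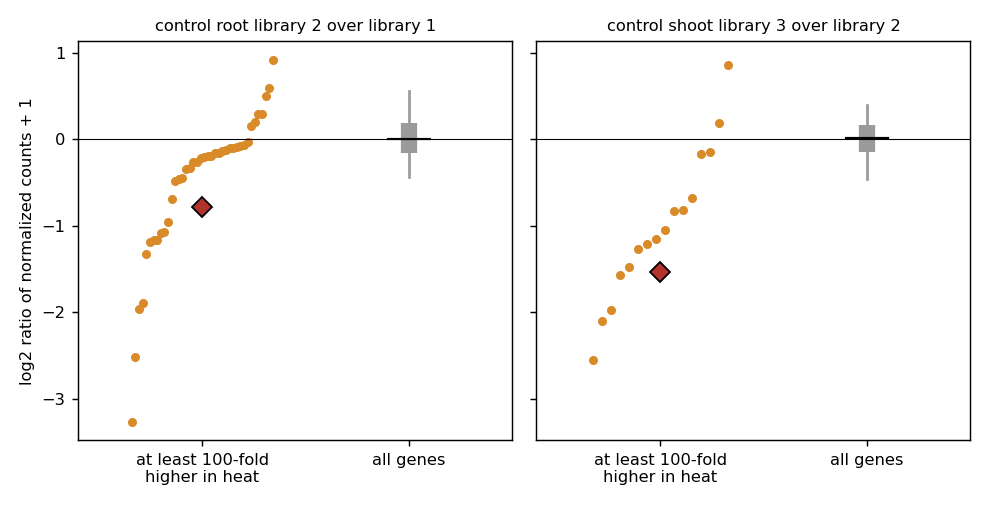
Log2 ratio of normalized counts + 1 between the control libraries with the lowest and the highest Hsp90.1 level, in roots and shoots; orange points are the genes that rose at least 100-fold and had a control mean of at least 10, the red diamond is Hsp90.1, and for all genes the black line is the median, the thick bar spans the quartiles and the thin line runs from percentile 5 to 95. All genes centre near 0, while the strongly rising genes lie mostly below 0, with a median of −0.21 in roots and −1.10 in shoots.

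The genes with the pattern most like that of Hsp90.1 were sought by the distance of log2(CPM + 1) over the 4 group means, each profile centred on its own mean, among 10907 genes. The 5 nearest were MLOC_10834 at a distance of 0.49, MLOC_66477 at 0.66, MLOC_26766 at 0.70, MLOC_2337 at 0.71 and MLOC_45029 at 0.75, against a median distance of 9.57 over all genes. A next gene followed at 1.06, and 18 genes lay within 2. The list depends on the constant added, and kept 3 of its 5 genes with 0.1 CPM and 2 with 10 CPM in place of 1, with MLOC_45029 and MLOC_2337 nearest in turn. With levels included it kept 0 of the 5. Centring leaves the level out, and all 5 were less abundant than Hsp90.1 in each group.

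MLOC_10834, the nearest with 1 CPM added, held 59727 and 55972 reads in heated roots against 65 and 15 in control roots. In shoots it held 11243, 11862 and 11140 reads under heat against 18, 15 and 4 in control. Its mean rose 2069-fold in roots and 1129-fold in shoots. The rises of all 5 lay between 1301-fold and 2609-fold in roots and between 566-fold and 1517-fold in shoots. By edgeR, the interaction of organ and heat lay between 0.47 and 1.25 in the 5 genes. It missed the threshold in each (edgeR adjusted p 0.117 to 0.683). These genes were chosen by the same 4 group means, so that like folds and a like interaction follow from the choice. In each of the 5, control root library 1 was the higher and control shoot library 3 the lowest, as for Hsp90.1. All 5 are among the root genes counted above, and MLOC_10834, MLOC_2337 and MLOC_45029 among the shoot genes. In control shoots MLOC_66477 held only 7, 7 and 2 reads, and MLOC_26766 only 10, 10 and 1. The choice of these genes used the group means but not the order of libraries within a group. Likeness over 4 means that all separate heat from control is a description only.

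**Figure D5:**
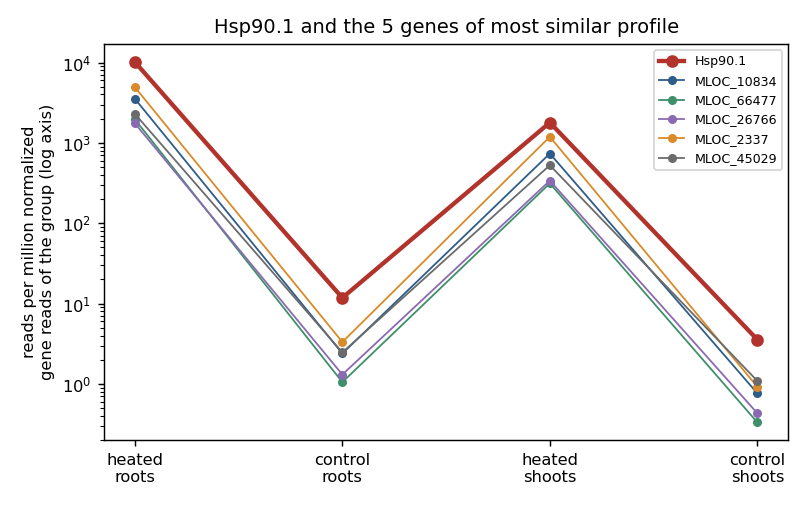
Level of Hsp90.1 and of the 5 genes of nearest profile in the 4 groups, in CPM on a log10 axis; points are group values and lines only join the points of a gene. Hsp90.1 lies above the others in each group, from 10150 CPM in heated roots and 11.8 CPM in control roots to 1789 CPM in heated shoots and 3.55 CPM in control shoots.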

How the data were processed

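Strand-specific RNA sequencing libraries of roots and shoots were compared within each organ. The authors mapped reads with TopHat2, counted them per gene with HTSeq and normalized them with DESeq, whose versions the sources at hand do not give. The deposited signal values are mean normalized counts per gene and group. The authors' fold changes, p-values and adjusted p-values, and their shorter tables of called genes, were not used. Lines that name no gene made up 60.6% of normalized reads in heated roots, 60.4% in control roots, 67.7% in heated shoots and 66.6% in control shoots, and were left out.

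A deposited mean adds up the reads of its libraries, each over its size factor, and divides by their number. The steps of low means gave the size factors, and all sets of whole reads that give a mean to its 15 digits were listed. A mean was split where 1 set existed, or 1 set with libraries within 2-fold. All root means above 0, 99.913% of heated and 99.908% of control shoot means were split. The means not split were 18 in heated and 19 in control shoots, all of at least 74899, and held 26.7% of heated and 25.2% of control shoot gene reads. These genes are absent from the tests. Ranks by group use the deposited means. Ranks in single libraries use the recovered reads, with each gene not split counted as above Hsp90.1.

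Reads were tested with edgeR 4.0.16 in R 4.3.3 (quasi-likelihood, TMM, default filter, Benjamini-Hochberg over all genes), within each organ and, for the interaction and organ contrasts, over all 10 libraries. The organ contrasts were chosen after seeing the data. The procedure was also run on simulated data, with outcomes not reported here. For the splitting of means, simulated libraries were drawn around a common level, which favours the rule of like libraries. Alternatives were RLE factors, total reads, no filter, DESeq2 1.42.0, limma 3.58.1 on log2(normalized count + 1 or + 10), and each library left out. Other work used Python 3.11.15, numpy 2.4.6 and pandas 2.3.3.

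Named were Hsp90.1, the 5 genes of nearest profile, its neighbours by heated mean and, in each organ, the 3 genes of largest heated mean among those with a rise of at least 100-fold. The gene and these rules were chosen with earlier results of these data known. MLOC_28370 was added as a check of the organ labels. No identifier matched the table of barley genes at hand, so that other chaperone genes, sequences and positions were not analysed here. The methods state biological replicates, but no recovered library could be tied to a replicate letter.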

Additional observations from a re-analysis of the deposited data

How the results depend on the processing

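The rise of Hsp90.1 was called under each of 10 alternatives in roots (log2 9.75 to 10.67; 9.89 to 10.67 with a library left out) and each of 13 in shoots (8.86 to 9.47, the same range with a library left out). A group left with 1 library was assumed to vary like the others. Scaling to summed reads of the fitted genes gave 9.75 in roots and 8.99 in shoots, with the median of all genes at −0.48 and −0.19, and split the calls into 1916 higher and 9071 lower in roots and 1768 higher and 4874 lower in shoots, against 3972 and 4132 in roots and 3094 and 3190 in shoots with TMM. The interaction passed in 2 of 17 alternatives, without a control library (0.65 to 1.42 with a library left out, 0.75 to 1.16 otherwise). Scaled to total reads it was 0.75 beside a median of −0.25, with 1081 genes of larger and 2921 of smaller root response, against 1957 and 1504 with TMM. The contrast of heated organs ranged from 1.30 to 1.51 and that of control organs from −0.041 (without control root library 1) to 0.73 with a library left out. The other set of heated shoot reads gave 1.39 for heated organs (adjusted p = 0.154 in edgeR), and total reads gave 1.29 for control organs. No paired analysis was possible because the deposited columns are group means and the recovered libraries carry no replicate letter.

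As a share of all lines of the table, Hsp90.1 was 0.400% in heated roots, 0.000466% in control roots, 0.0578% in heated shoots and 0.000119% in control shoots. Without the 10 genes of most reads in each group it was 1.09% in heated roots and 0.227% in heated shoots. Its rank was 9761 and 12083 in single control root libraries, 71, 56 and 84 in heated shoot libraries, and 11736, 11225 and 14228 in control shoot libraries. Those of heated shoots hold for the chosen set of reads only. The place of its rise was 13 in roots and 16 in shoots with a minimum mean of 10, 10 and 11 with one of 1000, 10 and 12 with a pseudocount of 1, and 6 and 5 with one of 10. Of the 5 genes of nearest profile, 3 stayed with a pseudocount of 0.1 CPM, 2 with one of 10 CPM and 0 when levels were included. Control counts of 24 to 252 reads limit the precision of every fold change.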
